A study of Mus musculus with 96 samples.

Results

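Spleen and blood of mice that lack a working phagocyte NADPH oxidase were compared within each animal. The mice were the 24 animals of genotype Ncf1 for which an array of each tissue was available, so that 48 of the 96 arrays of the series entered the comparison (24 of spleen and 24 of blood). They were chosen by their genotype label, and the tissues of a mouse were matched through its number and experiment as the sample titles give them. The Ncf1 mice were male C57BL/10.Q/rhd.Ncf1m1J animals (BQ.Ncf1m1J), and 24 male wild type C57BL/10.Q/rhd mice (wt) with the same tissues served as the genotype control. Both genotypes had collagen induced arthritis and were sampled at day 15 or day 44 after immunisation. Unimmunised mice were not analysed here. Of the 24 Ncf1 mice 12 were taken at each day, and 12 belonged to experiment I and 12 to experiment II, with 6 mice for each day and experiment. Total RNA of whole tissue was put on Illumina bead arrays after globin transcripts had been removed, without sorting or stimulation of cells. In experiment I the RNA came from Ambion kits with a lithium chloride step for blood, and in experiment II from Qiagen kits with stabilising reagents.

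Ncf1 encodes a cytosolic subunit of the NADPH oxidase, the membrane enzyme with which neutrophils and macrophages make superoxide. The mouse spleen, unlike that of adult humans, makes blood cells throughout life. Its red pulp can hold dividing precursors of red cells, granulocytes and megakaryocytes, beside macrophages that clear old red cells, while blood receives mainly the finished cells. Granulocyte precursors make the proteins of primary granules first and those of secondary granules later, and have largely stopped both by the time they leave for the blood. Red cell precursors likewise switch on membrane skeleton, haem and globin genes in sequence before they lose their nucleus.

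Values are log2 of the deposited probe intensities, and a difference is spleen minus blood of the same mouse, so that a positive difference means a higher value in spleen. A gene was called spleen-marked where limma gave a Benjamini-Hochberg adjusted p under 0.05 over 16593 genes and the mean log2 difference was at least 1 (a fold of at least 2), and blood-marked where it was at most -1. The arrays of each tissue had been brought to a single distribution of their own, with medians of 82.2 intensity units in spleen and 73.4 in blood. A difference between tissues is therefore a difference of standing within each tissue's distribution, and equal loading of RNA cannot be read from it. In a bulk sample, fewer cells of a type and less RNA per cell cannot be told apart.

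The blood arrays of experiment I stood apart from all others. The mean log2 intensity over 26 liver genes lay between 8.16 and 12.52 on the 12 Ncf1 blood arrays of experiment I (median 11.51), against 6.005 to 6.074 on the 12 of experiment II. On the 24 Ncf1 spleen arrays it stayed between 5.995 and 6.157. Wild type blood of experiment I ranged likewise from 6.66 to 12.64. The liver list was drawn up after its genes had been noticed among the largest blood values, and its part in other results of experiment I was not tested. Counts of spleen-marked and blood-marked genes and most leading values are therefore also given for experiment II alone, where blood held no such transcripts. Pancreatic transcripts were raised in an array of 3 Ncf1 mice and of 9 wt mice.

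Across all genes, 2386 were spleen-marked (14.4 percent of those tested) and 336 were blood-marked (2.02 percent). Without any limit of size, 57.6 percent of all genes passed as higher and 10.1 percent as lower in spleen. In experiment II alone there were 2238 spleen-marked (13.5 percent) and 248 blood-marked genes (1.49 percent). Of the spleen-marked genes 1844 (11.1 percent of all genes) kept their call there, whereas 148 of the 336 blood-marked genes were also blood-marked there (0.892 percent of all genes) and 122 had a positive difference. Spleen-marked genes made up 87.7 percent of all marked genes, but 51.1 percent (627 spleen-marked and 600 blood-marked) once all 48 arrays were quantile normalised together. The median difference of all genes was -0.01 on that scale, against 0.14 on the deposited one. The threshold ran through a dense range of values. Tfam, Rassf1 and Mettl1 lay just inside the spleen limit (each 1.00, with standard errors of 0.05 to 0.06), and Wdr1, Bclaf1 and Zdhhc6 just outside it at 0.99998, 0.99991 and 0.99969.

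Precursor genes lay mostly on the spleen side, with platelet genes as the main exception. The 11 precursor lists held 178 measured genes, of which 75 (42.1 percent) were spleen-marked and 15 (8.43 percent) were blood-marked, beside 14.4 and 2.02 percent of all genes. In experiment II alone the counts were 74 and 18, and 74 of the 75 spleen-marked genes kept the call there. With all arrays normalised together the counts were 65 and 22. The median difference of the precursor genes was 0.45, against 0.14 for all genes. In 72 of the 75 spleen-marked genes every one of the 24 mice was higher in spleen, and in 59 (78.7 percent) the lowest spleen array lay above the highest blood array, beside 59.8 percent of all 2386 spleen-marked genes. Among all 178 precursor genes 61 (34.3 percent) were so separated, beside 11.1 percent of all genes. The opposite separation occurred in 0.301 percent of all genes. The 15 blood-marked precursor genes were 11 of the megakaryocyte and platelet list, 3 of the haem and iron list and 1 of the secondary granule list.

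**Figure D1:**
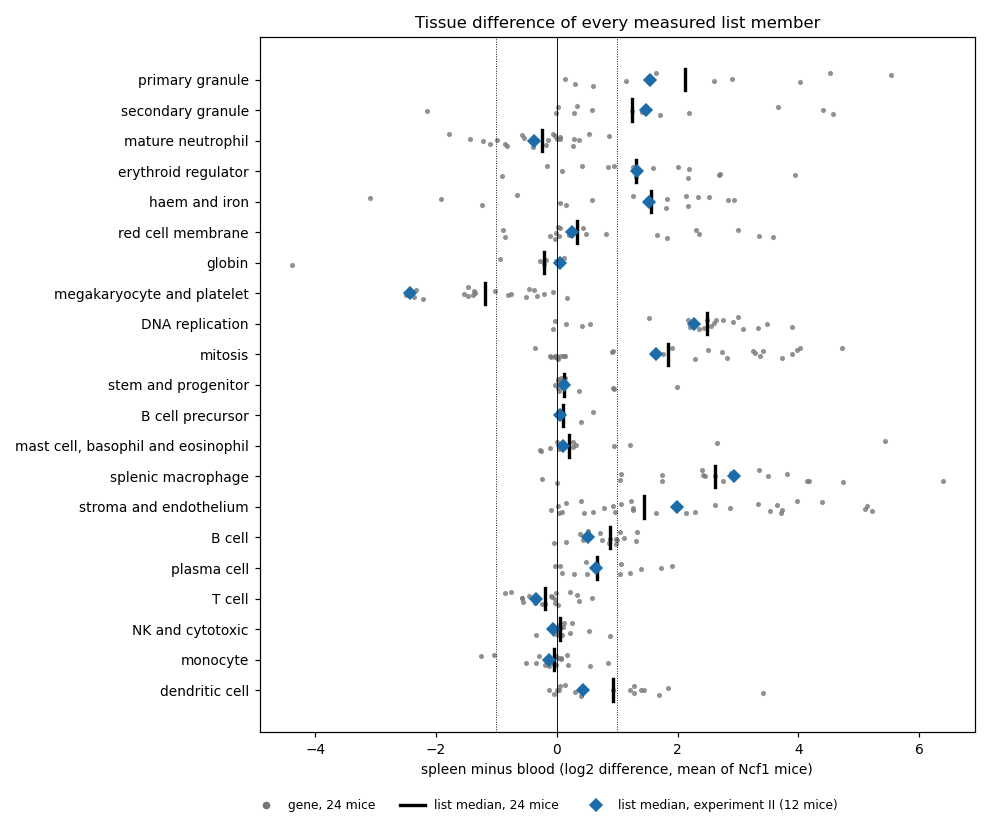
Spleen minus blood log2 difference (horizontal axis) of every measured gene of 21 lists in Ncf1 mice. Grey points are genes over 24 mice, black bars the list medians and blue diamonds the list medians in experiment II alone. Dotted lines mark differences of -1 and 1. DNA replication, splenic macrophage and primary granule genes have the medians farthest to the spleen side (2.49, 2.61 and 2.13), and the megakaryocyte and platelet list has the median farthest to the blood side, at -1.19 over all mice and -2.43 in experiment II.

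Genes seen in spleen only were found by comparison with a background level. On each array this was the 95th percentile of 1336 probes for olfactory, vomeronasal and taste receptors. Spleen and blood cells were taken not to express these receptors. The level ran from 6.22 to 6.95 on Ncf1 blood arrays of experiment I and from 6.22 to 6.35 on those of experiment II. Spleen levels were 6.29 to 6.45 and 6.28 to 6.46 in these experiments. A gene more easily counts as not seen where this level is higher, and its part in the calls was not tested. A gene counted as seen in spleen only when it lay above that level on at least 20 of 24 spleen arrays and on at most 4 of 24 blood arrays. This held for 312 genes (1.88 percent), against 8 genes (0.0482 percent) for blood only and 5735 (34.6 percent) for both tissues. Among the 178 precursor genes 8 were seen in spleen only, 0 in blood only and 91 in both, while 28 lay above background on at most 4 arrays of each tissue. The 8 genes were Mpo, Ms4a3, Fcnb and Epx of granulocytes and Cdc6, Cdk1, Kif2c and Tpx2 of dividing cells. Within experiment I taken alone, where the rule asked for 10 of 12 and at most 2 of 12 arrays, 22 precursor genes met it. Under the same rule 6 precursor genes met it in experiment II alone. Of the 8, Mpo, Ms4a3, Cdc6, Cdk1 and Epx met it there and Fcnb, Kif2c and Tpx2 did not. Ms4a3 and Cdc6 also met the strictest form, above background on all 24 spleen arrays and on 0 of 24 blood arrays.

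Mpo encodes myeloperoxidase, the peroxidase of primary granules that turns hydrogen peroxide into hypochlorous acid. Its log2 intensity ran from 10.24 to 13.24 in spleen (median 11.67) and from 5.84 to 6.54 in blood (median 6.05). The lowest spleen lay far above the highest blood, and blood passed background on 3 of 24 arrays. The difference was 5.54 ± 0.14 (standard error, n = 24 mice, limma adjusted p = 7.71e-21), a fold of 46.6, and it was 5.95 in experiment II. Because blood was at background, this fold is limited from below by the array. The other 2 Mpo probes, which are dimmer, gave differences of 1.89 and 3.16.

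Ms4a3, a membrane protein made by granulocyte and monocyte progenitors, ran from 6.59 to 10.70 in spleen (median 8.64) and from 5.82 to 6.16 in blood (median 5.996). Spleen and blood did not overlap, and no blood array passed background. Against the background level of each blood array it was at least 4.73-fold higher in spleen (limma adjusted p = 5.1e-15). Its second probe differed by 0.49. Fcnb, ficolin B of neutrophil precursor granules, had spleen values of 7.28 to 9.59 (median 8.28) and blood values of 5.81 to 6.43 (median 6.10), with a difference of 2.19 ± 0.13 (adjusted p = 1.65e-13). Epx, the eosinophil peroxidase, lay closer to background, at 6.28 to 8.16 in spleen (median 6.93) and 5.95 to 6.19 in blood (median 6.06). It was at least 1.57-fold higher in spleen (adjusted p = 1.34e-11) and did not reach the limit of 1 for a spleen-marked gene.

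Among the genes of division, Cdk1, the kinase that starts mitosis, ran from 8.35 to 11.07 in spleen (median 9.73) and from 6.07 to 6.57 in blood (median 6.21). Its difference was 3.42 ± 0.10 (n = 24, limma adjusted p = 1.8e-19), and the groups did not overlap. Its 2 other probes stayed near background in both tissues and differed by 0.12 and 0.17. Kif2c, a kinesin that frees wrongly attached chromosomes, had spleen values of 8.62 to 9.97 (median 9.46) and blood values of 5.89 to 6.32 (median 6.11), a difference of 3.28 ± 0.05 (adjusted p = 5.27e-24). Of the 8 genes it varied least between mice in spleen, with an SD of 0.33. Cdc6, which loads the replicative helicase onto origins, ran from 7.68 to 9.44 in spleen (median 8.56) and from 5.90 to 6.28 in blood (median 6.10) and was at least 4.57-fold higher in spleen (adjusted p = 7.43e-19). Blood values of Fcnb, Cdk1 and Kif2c lay at background on 20 or more of 24 arrays, so that their differences too are limited from below. The other 3 Cdc6 probes differed by 0.01, 0.02 and 0.78. Tpx2, a spindle assembly factor, had spleen values of 6.27 to 7.48 (median 6.89) and blood values of 5.81 to 6.08 (median 5.96), and was at least 1.43-fold higher in spleen (adjusted p = 3.87e-13). Like Epx, Tpx2 did not reach the limit for a spleen-marked gene. With the 99th percentile of the receptor probes as background it no longer met the spleen-only rule.

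**Figure D2:**
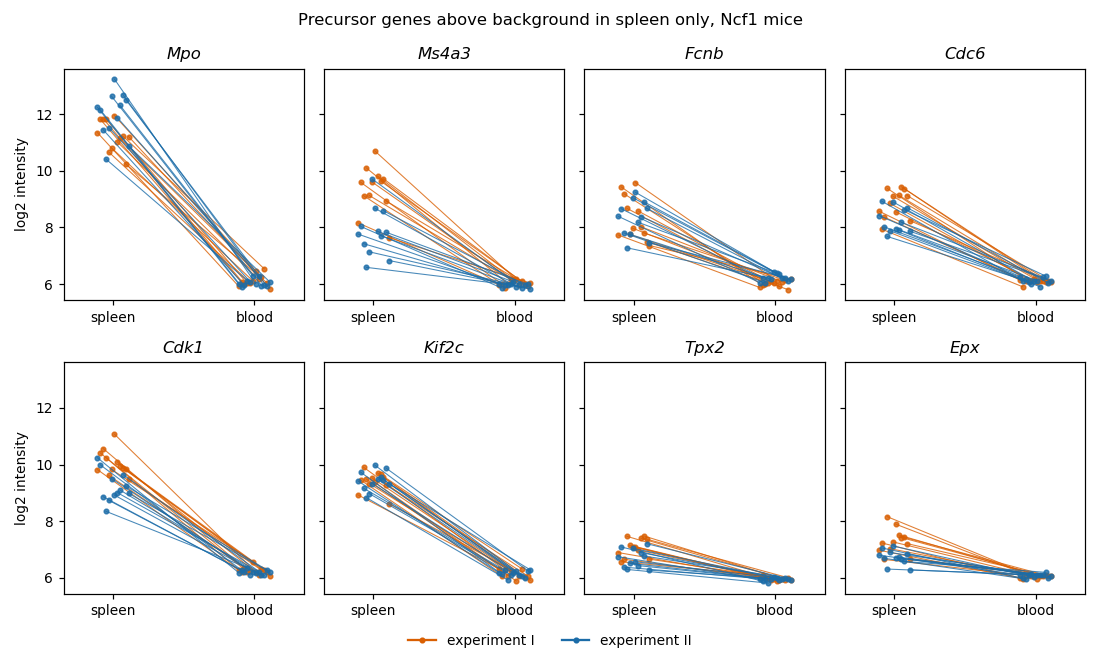
Log2 intensity in spleen (left) and blood (right) of each of the 24 Ncf1 mice for the 8 precursor genes seen in spleen only, with a line joining the tissues of a mouse. Orange marks experiment I and blue experiment II. Every line falls to the right, and blood values stay between 5.81 and 6.57 while spleen values spread up to 13.24 for Mpo.

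The promoters of 7 of these 8 genes were matched by symbol in RefSeq (build GRCm38.p6). Shown are the 250 bases before the transcription start of 2 granulocyte genes and 2 genes of division, 5′ to 3′ on the gene's strand. Capitals mark 5 short motifs searched on both strands, namely GAGGAAG (bound by PU.1), TTGCNNCAA (C/EBP), TGTGGT (RUNX), CCAAT (the CCAAT box) and TTTGAA (the cell cycle homology region, CHR).
Mpo, chr11:87793534-87793783, plus strand: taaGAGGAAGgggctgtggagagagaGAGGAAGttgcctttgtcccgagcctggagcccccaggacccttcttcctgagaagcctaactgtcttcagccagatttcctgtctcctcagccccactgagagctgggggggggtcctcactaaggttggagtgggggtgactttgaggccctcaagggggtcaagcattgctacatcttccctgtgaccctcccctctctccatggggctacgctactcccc
Ms4a3, chr19:11640852-11641101, minus strand: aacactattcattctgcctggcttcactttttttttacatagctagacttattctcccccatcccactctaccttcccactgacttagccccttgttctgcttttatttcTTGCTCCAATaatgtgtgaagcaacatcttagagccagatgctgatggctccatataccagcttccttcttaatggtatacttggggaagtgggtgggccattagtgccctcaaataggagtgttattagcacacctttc
Cdk1, chr10:69352913-69353162, minus strand: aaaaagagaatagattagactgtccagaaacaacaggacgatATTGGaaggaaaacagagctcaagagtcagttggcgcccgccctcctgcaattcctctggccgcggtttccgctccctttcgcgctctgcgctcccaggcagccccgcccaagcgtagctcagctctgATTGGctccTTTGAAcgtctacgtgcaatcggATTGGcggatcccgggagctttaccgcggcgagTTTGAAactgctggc
Kif2c, chr4:117178773-117179022, minus strand: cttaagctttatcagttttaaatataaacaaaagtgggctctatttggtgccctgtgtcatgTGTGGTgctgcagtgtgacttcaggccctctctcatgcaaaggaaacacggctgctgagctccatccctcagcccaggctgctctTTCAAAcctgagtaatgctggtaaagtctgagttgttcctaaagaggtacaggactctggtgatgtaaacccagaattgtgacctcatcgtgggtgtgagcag

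The Mpo window held 2 copies of GAGGAAG, a motif present in 10.4 percent of 27025 promoter windows of the same length and in 5 of 8 windows of the primary granule list. In Ms4a3 a TTGCNNCAA match (1.78 percent of all windows) overlapped a CCAAT. Cdk1 held 3 copies of CCAAT, all on the opposite strand, and 2 of TTTGAA on its own strand. The CCAAT box was found in 34.5 percent of all windows, in 20 of 25 windows of the mitosis list and in 14 of 20 of the DNA replication list. TTTGAA was found in 16.3 percent of all windows and in 8 of 25 of the mitosis list. Kif2c held TTTGAA on the opposite strand and 1 TGTGGT, which 14.2 percent of all windows contain. The Cdc6 and Epx windows held none of the 5 motifs and are not shown, although Cdc6 met the strictest form of the spleen-only rule. The Fcnb window, also not shown, held 2 copies of CCAAT. These are matches of letters in short windows and show no binding.

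Granulocyte genes were listed by the stage at which they are made. Of 10 primary granule genes 7 were spleen-marked and 0 blood-marked (6 and 0 in experiment II), with a median difference of 2.13. Of 13 secondary granule genes 7 were spleen-marked and 1 blood-marked (the same counts in experiment II), with a median of 1.25. Of 24 genes of mature neutrophils 0 were spleen-marked and 4 blood-marked (0 and 7 in experiment II), with a median of -0.25.

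Elane, Ctsg and Prtn3 encode the serine proteases of primary granules. Elane ran from 9.06 to 12.15 in spleen (median 10.32) and from 6.10 to 6.78 in blood (median 6.43), a difference of 4.02 ± 0.17 (adjusted p = 1.76e-16). Ctsg ran from 8.20 to 12.41 in spleen (median 10.83) and from 5.78 to 6.60 in blood (median 6.11), a difference of 4.52 ± 0.15 (adjusted p = 1.54e-18). For both proteases every spleen lay above every blood. Prtn3 differed from them in that it was plain in blood too, with values of 8.89 to 12.79 in spleen (median 11.22) and 6.84 to 10.40 in blood (median 8.21). Its ranges overlapped, although each of the 24 mice was higher in spleen, by 2.91 ± 0.17 on average (adjusted p = 7.13e-14). Cebpe, the transcription factor of the step to secondary granules, was higher in spleen by 1.65 ± 0.14 in 22 of 24 mice. Gfi1, a repressor needed for neutrophil maturation, was higher by 1.14 ± 0.06 in all 24. Cebpa, a factor of earlier myeloid progenitors, did not pass over all mice (0.13 ± 0.08, adjusted p = 0.15). Its spleen and blood medians were 6.4 and 6.38 among mice of experiment I, and 6.71 and 6.35 among those of experiment II. Values of experiment II ran from 6.47 to 7.03 in spleen and from 6.18 to 6.66 in blood. The part of the liver transcripts of experiment I blood was not tested.

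The secondary granule list held 8 genes seen in both tissues and 1 seen in spleen only, Fcnb. A further 2 lay above background on at most 4 arrays of each tissue. Ltf, Camp and Ngp were bright in spleen and also present in blood. Ltf, lactoferrin, ran from 11.56 to 14.78 in spleen (median 13.76) and from 6.99 to 11.55 in blood (median 8.46). The highest blood array lay just under the lowest spleen array, and the difference was 4.58 ± 0.12 (adjusted p = 9.53e-21), or 5.42 in experiment II. Camp, the cathelicidin peptide precursor, ran from 11.14 to 13.51 in spleen (median 12.74) and from 7.06 to 10.09 in blood (median 8.14), a difference of 4.41 ± 0.11. Ngp, neutrophilic granule protein, differed by 3.66 ± 0.13, with its lowest spleen and highest blood array both at 9.46. Hp, haptoglobin, was the blood-marked member, with values of 9.34 to 11.97 in spleen (median 10.79) and 10.89 to 15.21 in blood (median 12.40), a difference of -2.16 ± 0.17. Haptoglobin is also a major product of the liver, and its difference was -3.11 in experiment I, where blood held liver transcripts, against -1.20 in mice of experiment II.

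Genes of finished neutrophils lay mostly on the blood side or near 0. Without the limit of size, 13 of the 24 passed as lower in spleen and 5 as higher. In experiment I alone 1 was spleen-marked and 0 were blood-marked. Clec4d, a lectin receptor, ran from 6.86 to 9.05 in spleen (median 7.51) and from 8.06 to 10.39 in blood (median 9.62), a difference of -1.79 ± 0.12 (adjusted p = 6.35e-13). Il1b, interleukin-1 beta, differed by -1.43 ± 0.13, Retnlg by -1.22 ± 0.15 and Cxcr2, the chemokine receptor that draws neutrophils into tissue, by -1.11 ± 0.10. All 4 overlapped between tissues and were farther to the blood side in experiment II (-2.59, -1.95, -1.76 and -1.46) than in experiment I (-0.99, -0.91, -0.67 and -0.76). S100a8 and S100a9, the calprotectin chains that neutrophils make in large amounts from the myelocyte stage on, hardly separated the tissues, at 0.28 ± 0.10 and 0.29 ± 0.12. In experiment II they differed by -0.03 and 0.01.

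Red cell precursor genes lay on either side. Of 15 erythroid regulators 9 were spleen-marked and 0 blood-marked (the same in experiment II), with a median of 1.31. Klf1, the master activator of globin and membrane genes, ran from 9.56 to 11.06 in spleen (median 10.46) and from 6.23 to 6.87 in blood (median 6.47), a difference of 3.94 ± 0.07 (adjusted p = 3.05e-23). The tissues did not overlap, and the differences in the experiments were 3.96 and 3.92. Tal1 was higher by 2.71 ± 0.12, Gfi1b by 2.68 ± 0.07, the erythropoietin receptor gene Epor by 2.19 ± 0.08 and Zfpm1, the partner of GATA factors, by 2.18 ± 0.12, each in 24 of 24 mice. Gata1 itself stayed under the limit, at 0.85 ± 0.08 (adjusted p = 7.88e-10).

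The haem and iron list was divided. Of 17 genes 10 were spleen-marked and 3 blood-marked (10 and 2 in experiment II), with a median of 1.57. Tfrc, the transferrin receptor, ran from 11.56 to 12.93 in spleen (median 12.15) and from 8.31 to 10.73 in blood (median 9.37), a difference of 2.84 ± 0.12. The mitochondrial transporter Abcb10 (2.93 ± 0.08) and the haem synthesis enzymes Uros (2.52 ± 0.08) and Alad (2.34 ± 0.10) were spleen-marked as well. The 3 blood-marked genes were Fech, Tspo2 and Alas2. Fech, which inserts iron in the last step of haem synthesis, ran from 7.31 to 9.27 in spleen (median 8.59) and from 9.60 to 13.44 in blood (median 11.19), so that every spleen lay below every blood (-3.09 ± 0.13, adjusted p = 2.21e-16, -2.58 in experiment II). Tspo2 differed by -1.92 ± 0.11. Alas2, the erythroid first enzyme of the pathway, differed by -1.25 ± 0.08, and by -0.75 in experiment II, where it did not reach the limit.

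Of 20 red cell membrane genes 7 were spleen-marked and 0 blood-marked (the same in experiment II), with a median of 0.34. Ermap, an erythroid membrane protein, ran from 8.70 to 11.29 in spleen (median 9.82) and from 5.91 to 6.58 in blood (median 6.16), a difference of 3.58 ± 0.10 without overlap. A second Ermap probe near background differed by 0.08. The water channel Aqp1 (3.35 ± 0.12), ankyrin gene Ank1 (2.996 ± 0.138), Icam4 (2.35 ± 0.11) and Rhag (2.30 ± 0.11) were also higher in all 24 mice. Of the 5 Ank1 probes, a second bright one gave 3.01 and the others 0.63, -0.10 and -0.10. Slc4a1, the band 3 anion exchanger, was near the top of both tissues (14.73 ± 0.29 in spleen and 14.77 ± 0.33 in blood, SD) and did not pass (-0.04 ± 0.08, adjusted p = 0.68). Globin transcripts had been depleted in the laboratory, and of 7 globin genes only Hbq1a, a theta globin gene, was marked, on the blood side (-4.39 ± 0.10), with 1 spleen-marked and 2 blood-marked in experiment II.

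The genes of DNA replication and mitosis lay on the spleen side where they were marked. Of 21 replication genes 16 were spleen-marked and 0 blood-marked, in all mice and in experiment II alike, with a median of 2.49. Uhrf1, which passes DNA methylation to daughter strands, ran from 10.01 to 12.16 in spleen (median 10.94) and from 6.66 to 8.51 in blood (median 6.95), a difference of 3.90 ± 0.14. Thymidine kinase Tk1 (3.48 ± 0.10), the ribonucleotide reductase subunits Rrm1 (3.33 ± 0.09) and Rrm2 (3.08 ± 0.07) and the helicase subunit Mcm2 (2.998 ± 0.079) were higher in all 24 mice without overlap.

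Of 28 mitosis genes 15 were spleen-marked and 0 blood-marked, again with the same counts in experiment II, with a median of 1.84, and 9 lay above background on at most 4 arrays of each tissue. Prc1, which bundles microtubules of the central spindle, ran from 10.93 to 12.54 in spleen (median 11.85) and from 6.63 to 7.71 in blood (median 7.04). Its difference was 4.72 ± 0.07 (adjusted p = 8.44e-25), close to the 4.81 of experiment II by itself. The kinesin Kif22 (4.03 ± 0.08), the activator of the anaphase complex Cdc20 (3.97 ± 0.07), survivin gene Birc5 (3.89 ± 0.09) and the kinase Plk1 (3.74 ± 0.11) were likewise higher in every mouse. Normalising all arrays together left the counts of both lists at 16 and 15. The splenic signal cannot be assigned to a lineage here, since lymphocytes of the spleen also divide.

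Megakaryocyte and platelet genes were the precursor list that lay on the blood side, and its value differed between the experiments. Of 20 genes 0 were spleen-marked and 11 blood-marked (0 and 15 in experiment II), and its median difference was -0.15 over the mice of experiment I but -2.43 over those of experiment II. Gp9, a subunit of the von Willebrand factor receptor of platelets, ran from 8.30 to 10.36 in spleen (median 9.17) and from 8.27 to 13.50 in blood (median 12.37), a difference of -2.33 ± 0.24 (adjusted p = 3.55e-09). In experiment II its spleen values were 8.79 to 10.36 and its blood values 12.07 to 13.50, with no overlap. In experiment I they were 8.30 to 9.70 and 8.27 to 12.76. Ppbp, the platelet basic protein chemokine, differed by -3.41 in mice of experiment II and by 0.33 in mice of experiment I. Nrgn (-2.49 ± 0.18), Cd9 (-2.37 ± 0.21) and Gp1bb (-2.21 ± 0.21) behaved like Gp9. Mean levels of the list ran from 7.32 to 10.22 over the blood arrays of experiment I and from 10.16 to 10.52 over those of experiment II. Kits, and the liver transcripts of experiment I blood, moved with this difference, and their part was not tested.

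**Figure D3:**
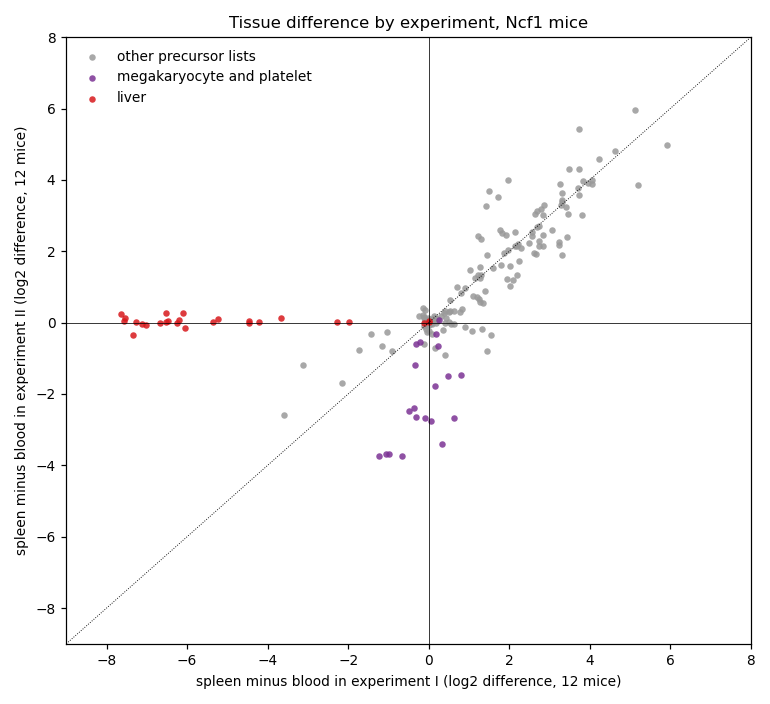
Spleen minus blood log2 difference of each gene in experiment I (horizontal axis, 12 mice) and experiment II (vertical axis, 12 mice) for the megakaryocyte and platelet list (purple), the liver list (red) and the 10 other precursor lists (grey). The dotted line marks equal differences. Grey genes lie mostly along it, platelet genes lie mostly below it with a median of -2.43 on the vertical and -0.15 on the horizontal axis, and liver genes reach a median of -6.15 on the horizontal axis and 0.02 on the vertical axis.

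The experiments differed widely. The tissue difference was higher in experiment II than in experiment I for 2679 genes (16.1 percent) and lower for 3414 (20.6 percent). Experiment I alone gave 2944 spleen-marked (17.7 percent) and 514 blood-marked genes (3.1 percent).

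Few genes of the earliest cells reached the limit. Of 15 stem and progenitor genes 1 was spleen-marked, Meis1, a homeobox factor of stem cells and megakaryocytes, with spleen values of 8.29 to 9.77 (median 8.69) and blood values of 6.48 to 7.20 (median 6.88), a difference of 1.98 ± 0.08. The list median was 0.12, close to that of all genes. Without the limit of size, 8 of the 15 genes passed as higher in spleen and 0 as lower. In experiment I alone 3 were spleen-marked, and in experiment II alone 1. Cd34 was higher in spleen in 23 of 24 mice, but by 0.37 ± 0.04, with levels near background in both tissues. Of 5 B cell precursor genes 0 were marked on either side, and 3 lay at background in both tissues.

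Of 14 genes of mast cells, basophils and eosinophils 3 were spleen-marked and 0 blood-marked, in all mice and in experiment II (median 0.20). Prg2, the eosinophil granule major basic protein, ran from 10.75 to 13.72 in spleen (median 12.22) and from 6.13 to 8.32 in blood (median 6.66). The difference of 5.44 ± 0.15 (adjusted p = 5.18e-20) was the third largest measured over all genes. Its paralogue Prg3 differed by 2.65 ± 0.08 and Prss34, a protease of basophils and mast cells, by 1.21 ± 0.07. Siglecf, a receptor of eosinophils, lay above background on 0 arrays of either tissue. Fcer1a and Il4 were lower in spleen over all mice, by -0.26 and -0.27, but the side differed between the experiments. In experiment I Fcer1a had medians of 6.83 in spleen and 6.45 in blood, and Il4 of 6.43 and 6.25. In experiment II these were 6.89 and 7.69 for Fcer1a and 6.28 and 7.08 for Il4. Prss34 fell under the limit, at 0.69, with all arrays normalised together.

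Beside precursors, the spleen's fixed cells set it apart. Of 19 splenic macrophage genes 17 were spleen-marked (median 2.61, 17 in experiment II), and of 30 stroma and endothelium genes 19 (median 1.45, 21 in experiment II). Vcam1, an adhesion molecule of red pulp macrophages, had the largest measured difference, with spleen values of 11.71 to 13.24 (median 12.70) and blood values of 5.85 to 6.57 (median 6.12), or 6.39 ± 0.07 (adjusted p = 1.66e-27). Its blood values passed background on 4 of 24 arrays, so that this difference, like that of Mpo, is limited by the background, and their order is that of the measured values only. Spic, the transcription factor of red pulp macrophages, differed by 4.15 ± 0.07 and the receptor kinase Axl by 4.74 ± 0.09. The matrix gene Bgn (5.22 ± 0.14), the T zone chemokine Ccl21a (5.14 ± 0.12) and Igfbp7 (5.10 ± 0.15) were larger in experiment II, at 6.55, 5.99 and 6.15, than in experiment I, at 3.89, 4.29 and 4.06. Mfge8, a bridge for uptake of dying cells, differed by 5.36 ± 0.09, Epb41l3 by 4.93 ± 0.08, the gap junction gene Gja1 by 4.88 ± 0.09 and Sphk1, a sphingosine kinase, by 4.83 ± 0.07. Sphk1 was bright with 1 of its 3 probes, and the others differed by -0.03 and 0.19.

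Lymphocyte, plasma cell, dendritic cell and monocyte lists differed in side. Of 16 B cell genes 15 passed the test as higher in spleen (median 0.88), and 4 were spleen-marked (Tnfrsf13c, Blk, Cd22 and Cd79a, at 1.33 to 1.05), 1 in experiment II and 0 with all arrays normalised together. Of 21 T cell genes 0 were marked in either tissue, but 4 were blood-marked in experiment II and 9 with joint normalisation, and of 17 NK and cytotoxic genes 0 (also 0 in experiment II). Of 13 plasma cell genes 6 were spleen-marked (4 in experiment II, 2 with joint normalisation), led by the chaperone Hsp90b1 at 1.91 ± 0.08 and Mzb1 at 1.73 ± 0.10. Of 17 dendritic cell genes 8 were spleen-marked (7 in experiment II, 2 with joint normalisation), led by Dnase1l3 at 3.41 ± 0.09. Of 19 monocyte genes 2 were blood-marked, F13a1 (-1.26 ± 0.17) and Lyz2 (-1.04 ± 0.14), with differences of -0.33 and 0.04 among mice of experiment I and of -2.20 and -2.11 among those of experiment II. In the adipose list Pparg (1.25 ± 0.07) and Lpl (1.18 ± 0.12) were spleen-marked and Car3 blood-marked (-1.62 ± 0.20, 0.03 in experiment II). Among immediate early genes Egr1 (2.01 ± 0.13) lay in spleen and Jund (-1.24 ± 0.12) in blood.

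The 10 blood-marked genes with the largest differences of the same sign in both experiments were of 2 kinds. Fam220a, Hbq1a, Ube2l6, Gchfr, Ccndbp1 and Slc25a39 were lower in spleen in all 24 mice and in both experiments. Fam220a ran from 8.50 to 9.79 in spleen (median 8.99) and from 13.17 to 14.71 in blood (median 14.14), a difference of -5.15 ± 0.09 (adjusted p = 1.04e-23). Ube2l6, a conjugating enzyme for the ubiquitin-like ISG15, ran from 9.47 to 11.17 in spleen (median 10.11) and from 14.06 to 14.96 in blood (median 14.59), a difference of -4.38 ± 0.09. Gchfr, a regulator of tetrahydrobiopterin synthesis, differed by -4.06 ± 0.14, Ccndbp1 by -3.44 ± 0.09 and Slc25a39, a mitochondrial carrier, by -3.21 ± 0.10. In none of the 6 did spleen and blood ranges overlap.

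The other 4 of the 10 were the liver products Ambp, Ttr, Mup2 and Apoc4, whose differences rested on experiment I. Ttr, transthyretin, had blood values of 9.71 to 14.15 in experiment I and of 5.87 to 6.16 in experiment II, beside spleen values of 5.81 to 6.17. Its difference was -7.11 in the first of these and -0.03 in the other. Those of Ambp, Mup2 and Apoc4 were -0.35, -0.06 and -0.05 in experiment II. Of the 26 measured liver genes 22 were blood-marked over all mice and 0 in experiment II.

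Several genes named above had dimmer probes with smaller differences, beyond those already given. Probes near background in both tissues gave 0.21 for Aif1, 0.12 for Cd22, -0.09 for Cxcr2, 0.09 and 0.18 for Epb41l3, -0.06 for Fam220a, 0.05 for Gata1, -0.02 for Igfbp7, 0.42 for Itgb2l, 0.02 for Tk1 and 0.06 for Uhrf1. The 2 other probes of Pparg, likewise near background, were 0.11 and 0.004. Probes with signal in a tissue gave 0.81 for Abcb10, 1.29 for Cdc20, 0.65 for Cebpe, -0.58 for Fech, -2.03 for Gchfr, 2.16 for Ltf, 2.26 for Spic and 1.12 for Tk1. Another Fam220a probe gave -2.85. For Lyz2 a bright probe (10.5 in spleen and 10.7 in blood) gave -0.24 and did not pass (adjusted p = 0.245), so its call rests on 1 of 3 probes.

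The mutated gene was near background in both tissues. The Ncf1 probe with signal averaged 6.42 ± 0.22 in spleen and 6.29 ± 0.32 in blood of Ncf1 mice (SD, n = 24 arrays each), against 7.28 ± 0.28 and 6.84 ± 0.56 in wt mice. It lay above background on 15 of 24 spleen and 10 of 24 blood arrays of Ncf1 mice. Its tissue difference did not pass in Ncf1 mice (0.13 ± 0.06, adjusted p = 0.068). A second probe averaged 5.88 in spleen and 5.96 in blood of Ncf1 mice, at background. Of 7 measured genes of the oxidase list 0 were marked in either tissue. Cyba, the small membrane subunit, differed by 0.72 ± 0.14, Prkcd by 0.52 ± 0.09, Ncf4 by 0.48 ± 0.07 and Rac1 by -0.49 ± 0.08. Medians of Cyba and Prkcd were higher in spleen in both experiments. Spleen and blood medians of Ncf4 were 11.86 and 10.9 among mice of experiment I, but 11.38 and 11.34 among those of experiment II. For Rac1 the experiment I medians lay close (7.85 and 8.01), and those of experiment II lay apart (8.11 and 8.99). Rac2 did not pass (0.13 ± 0.11). The Cybb probe lay above background on 0 arrays of either tissue and gives no value for that subunit.

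Whether a tissue difference was larger or smaller with the mutation was tested over all 48 mice as the Ncf1 minus wt contrast. It was higher in Ncf1 mice for 476 genes (2.87 percent) and lower for 206 (1.24 percent). In experiment II alone the counts were 565 (3.41 percent) and 443 (2.67 percent), and in experiment I alone 27 (0.163 percent) and 5 (0.0301 percent). Without the mice with pancreatic transcripts, 3 Ncf1 and 9 wt, the counts were 414 and 96. Of the 178 precursor genes 76 (42.7 percent) were called higher and 0 lower (78 and 1 in experiment II, 9 and 0 in experiment I). Of the 75 spleen-marked precursor genes 61 were among those called higher. The Ncf1 arrays that gave the tissue calls also enter this contrast, so that the shared count is a description. Of the 312 genes seen in spleen only 58 were called higher and 16 lower.

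For primary granule genes the contrast came with similar levels in blood of either genotype. Mpo averaged 11.63 ± 0.77 in Ncf1 spleen and 9.83 ± 0.82 in wt spleen (SD, n = 24 each), but 6.08 ± 0.17 in Ncf1 blood and 6.04 ± 0.20 in wt blood, at background. Its tissue difference was 5.54 in Ncf1 and 3.79 in wt mice, and the contrast was 1.75 ± 0.20 (limma adjusted p = 9.95e-08, with 1.75 and 1.76 in the separate experiments). Ctsg gave 1.82 ± 0.21, Elane 1.62 ± 0.21, Ms4a3 1.46 ± 0.18 and Cebpe 1.31 ± 0.17, each past the threshold over all mice and in experiment II. So did Fcnb of the secondary granule list, at 1.14 ± 0.16. Of 10 primary granule genes 6 were called higher (5 in experiment II alone and 5 in experiment I alone).

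The secondary granule list as a whole was also higher in blood of Ncf1 mice, with overlapping ranges, although Fcnb lay at background there. The median of its array means in blood was 8.45 in Ncf1 and 7.27 in wt mice of experiment I. In experiment II these medians were 8.27 and 7.83. Ltf averaged 13.50 ± 0.86 in Ncf1 spleen and 11.65 ± 0.93 in wt spleen, and 8.93 ± 1.38 in Ncf1 blood and 7.42 ± 0.94 in wt blood. Its tissue difference was 4.58 in Ncf1 and 4.23 in wt mice, and the contrast of 0.34 ± 0.23 did not pass (adjusted p = 0.619), although it did in experiment II (0.81, adjusted p = 0.0104). Camp had tissue differences of 4.41 in Ncf1 and 4.42 in wt mice, with a contrast of -0.01 ± 0.20 (adjusted p = 0.995). Of 13 genes of the list 3 were called higher (5 in experiment II alone, 1 in experiment I alone): Fcnb, Itgb2l (0.94 ± 0.12) and Cd177 (0.96). Prtn3 of the primary granules was like Ltf, at 8.27 ± 0.80 in Ncf1 blood and 7.11 ± 0.63 in wt blood, and its contrast of 0.78 ± 0.24 missed the threshold (adjusted p = 0.0538).

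Red cell and division genes also had larger tissue differences in Ncf1 mice over both experiments, but hardly any passed in experiment I alone. The genes called higher were 7 of 15 erythroid regulators, 11 of 17 haem and iron genes, 13 of 20 red cell membrane genes, 16 of 21 replication genes and 17 of 28 mitosis genes, and 0 were called lower in these 5 lists. In experiment II alone 8, 10, 11, 14 and 16 of them were called higher, with 1 red cell membrane gene lower. In experiment I alone 1 haem and iron gene was called higher and 0 of the other 4 lists. Klf1 averaged 10.46 ± 0.38 in Ncf1 spleen and 9.46 ± 0.91 in wt spleen, and 6.52 ± 0.15 in Ncf1 blood and 6.54 ± 0.15 in wt blood, with a contrast of 1.02 ± 0.18 (adjusted p = 0.000197). Prc1 gave 0.96 ± 0.20, Kif2c 0.83 ± 0.12, Kif4 0.90 ± 0.12, Aqp1 1.27 ± 0.22 and Ermap 1.00 ± 0.19. Gata1, under the limit in Ncf1 mice, had a tissue difference of 0.85 in Ncf1 and 0.18 in wt mice (contrast 0.66, adjusted p = 0.000445). Of the basophil and mast cell genes Prss34 had a contrast of 0.76 ± 0.09. The megakaryocyte and platelet list had 0 of 20 genes called in either direction (5 higher in experiment II). The stem and progenitor list had 0 of 15 (1 higher in experiment II).

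**Figure D4:**
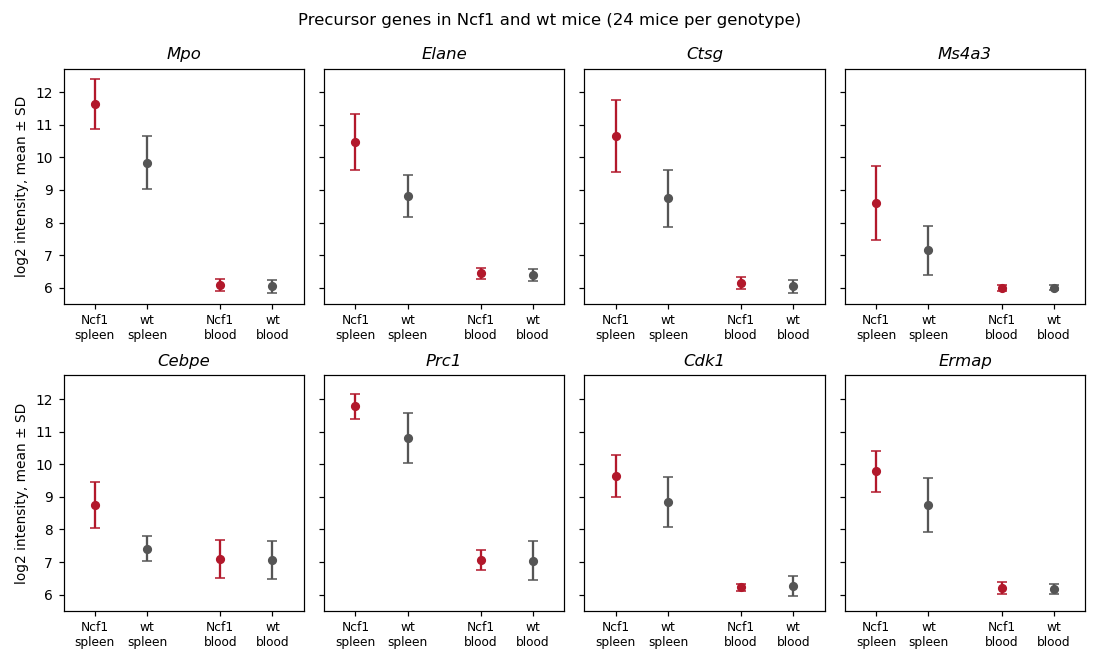
Log2 intensity (mean ± SD, 24 arrays per point) of 8 precursor genes in Ncf1 spleen, wt spleen, Ncf1 blood and wt blood. Red points are Ncf1 mice and grey points wt mice. In spleen the Ncf1 mean is above the wt mean for all 8 genes, by most for Ctsg (10.66 against 8.74), and in blood the means of the genotypes lie together, as for Mpo at 6.08 and 6.04.

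Calls in the T cell and monocyte lists were all downward. Among 21 T cell genes the contrast was higher for 0 and lower for 6 (0 and 12 in experiment II), and of 19 monocyte genes 0 and 5 (0 and 4 in experiment II). In experiment I alone 0 genes of either list were called. Without the mice with pancreatic transcripts 2 T cell genes and 1 monocyte gene were called lower. Without an experiment term 1 gene of each list was called lower. Of 16 B cell genes 0 were called in either direction, also in experiment II. Cd8b1, a chain of the CD8 coreceptor, averaged 10.69 ± 0.44 in Ncf1 spleen and 11.62 ± 0.32 in wt spleen, and 11.26 ± 0.56 in Ncf1 blood and 11.60 ± 0.62 in wt blood (contrast -0.59, adjusted p = 0.0178). The array mean over the T cell list ran in spleen from 7.85 to 8.83 in Ncf1 mice and from 8.33 to 9.08 in wt mice. In blood it ran from 7.63 to 9.04 in Ncf1 mice and from 7.78 to 9.38 in wt mice. The part of this shift in the precursor values was not tested. The splenic macrophage list had 0 genes higher and 1 lower, and Vcam1 had a contrast of -0.17 ± 0.11. The gene with the smallest p was Aif1, an actin-binding protein of macrophages and monocytes, which averaged 10.55 ± 0.37 in Ncf1 spleen and 10.68 ± 0.37 in wt spleen, but 8.59 ± 0.37 in Ncf1 blood and 7.69 ± 0.35 in wt blood. Its contrast was -1.02 ± 0.11 (adjusted p = 9.95e-08).

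Few genes passed the test for a change of the tissue difference with day, and their number depended on the fit. At day 15 there were 2286 spleen-marked (13.8 percent) and 333 blood-marked genes (2.01 percent), and at day 44 there were 2507 (15.1 percent) and 353 (2.13 percent). The change from day 15 to day 44 passed for 26 genes upward (0.157 percent) and 13 downward (0.0783 percent). These 39 genes became 714 with array weights, 74 among genes above the array median and 5 without an experiment term. The tissue difference of Mpo was 5.45 at day 15 and 5.64 at day 44, that of Ltf 4.47 and 4.69, and that of Prc1 4.54 and 4.91. None of these 3 changes passed (adjusted p of 0.854, 0.779 and 0.199). The only listed precursor gene whose change passed was Kif22, at 0.75 (adjusted p = 0.0487). The smallest p belonged to Psmc2, a proteasome subunit, with 1.03 at day 15 and 1.54 at day 44 (change 0.51 ± 0.07, adjusted p = 0.00155). Median differences of the primary granule list were 1.74 at day 15 and 2.41 at day 44, of the secondary granule list 1.49 and 0.91, and of the mitosis list 1.74 and 1.94. The median at each day can fall on a different gene. Taken gene by gene, the median change was 0.26 in the primary granule list. It was -8e-04 in the secondary granule list and 0.13 in the mitosis list.

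Whether mice high in spleen were also high in blood was asked for 11 genes, after the mean of each day and experiment had been removed, with two-sided permutations within day and experiment. Ltf went together in the tissues across the 24 Ncf1 mice, with Pearson's r = 0.69 (permutation p = 0.00036, adjusted p = 0.00396 over 11 genes) and Spearman's rho = 0.71 (permutation p = 0.00032). Without the 2 mice farthest from the spleen median r was 0.70, and it was 0.70 within experiment I and 0.90 within experiment II. Camp gave r = 0.58 (permutation p = 0.00193, adjusted p = 0.0106) and rho = 0.59 (permutation p = 0.00336), with 0.59 without 2 mice and 0.62 and 0.56 within experiments I and II. Mmp9, gelatinase B of late granules, gave r = 0.58 and rho = 0.49 but missed the threshold after adjustment (adjusted p = 0.0693 for r and 0.0973 for rho). For Mpo r was 0.08 (adjusted p = 0.735), with opposite signs within experiments I (0.61) and II (-0.46), and for Elane -0.27 (adjusted p = 0.405, with -0.27 and -0.25 within them). Blood values of both lay at or near background. S100a8, Ank1, Alas2, Cd8b1, Ms4a1 and Ncf1 lay between -0.32 and 0.56, and their adjusted permutation p ran from 0.215 to 0.685.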

How the data were processed

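RNA of both tissues, unsorted, from 48 mice was hybridised to Illumina bead arrays, with 1 array per mouse and tissue. The deposited values are linear probe intensities. The submitters' processing notes name limma and no version. For background correction and scanner software nothing is given in the sources used here. The sorted values of the deposited intensities were nearly the same in all arrays of a tissue, as after quantile normalisation of each tissue on its own. Values of all 25697 probes were used as deposited, and log2 was taken here (the design had assumed log2 values). The platform annotation gave 1 gene for 23978 probes and none for 1719. Each of the 16593 genes was represented by its probe with the highest mean, and the report gives other probes of named genes whose differences were much smaller.

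The difference of spleen minus blood was taken per mouse, and lmFit and eBayes of limma 3.58.1 (R 4.3.3) fitted it on day and experiment. Spleen and blood of a mouse come from the same animal, so the mouse is the block of the test. The genotype contrast used the same differences in all 48 mice. P-values were adjusted over all 16593 genes by the Benjamini-Hochberg method. Bounds for genes above background on no blood array use, per array, the higher of the background level and the gene's value. The precision is limited by the number of arrays. No 2 arrays were copies (highest correlation 0.995 in each tissue).

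The mice, the 25 gene lists (474 symbols, 420 measured) and the tests were chosen with earlier results of these data known. Named genes were up to 5 per precursor list by size and all seen in spleen only, up to 4 per other list, the 10 largest spleen-marked and blood-marked genes whose sign was shared by the experiments, the oxidase list, and those with the smallest p for genotype (10) and day (5). Cebpa, Gfi1, Gata1, Tspo2, Alas2, Slc4a1, Cd34, Siglecf, Fcer1a, Il4, S100a8, S100a9, Cd177 and Cd8b1 were named after their values were seen. Alternatives covered normalisation, background correction, filters, pairing, experiments, weights and thresholds. The fits were tested on simulated data.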

Additional observations from a re-analysis of the deposited data

Results flagged for a closer look

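The tissue difference itself differed between genotypes, by the test of the Ncf1 minus wt contrast, for 476 genes upward and 206 downward. The genes with the smallest p were Aif1 (-1.02), Mpo (1.75), Ctsg (1.82), Prss34 (0.763), Ms4a3 (1.46), Itgb2l (0.941), Cebpe (1.31), Elane (1.62), Kif4 (0.898) and Adgrg3 (0.493), all on the log2 scale. The contrast passed in experiment II alone for all 10, whereas in experiment I alone Kif4 and Adgrg3 missed the threshold (adjusted p = 0.0591 and 0.0508).

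The tissue difference differed between day 44 and day 15 for 39 genes. The smallest p belonged to Psmc2 (0.506), Septin1 (-1.3), Anp32a (0.437), Olfr270 (0.296) and Psmg2 (0.465), each given as day 44 minus day 15.

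The tissue difference differed between experiment II and experiment I for 6093 genes, with kits, stabilising reagents and the liver transcripts of experiment I blood moving with the experiment.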

How the results depend on the processing

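The joint quantile normalisation of all arrays gave 627 spleen-marked and 600 blood-marked genes, 575 and 589 at day 15, 745 and 655 at day 44, and 18 genes changing with day. A test against a 2-fold difference (limma treat) gave 1585 and 211, no fold limit 9564 and 1684, and experiment I alone 514 blood-marked genes. The paired fit keeps the mouse as the block. Without that replicate block the marked counts stayed at 2386 and 336, the genotype counts were 451 and 175, and 10 genes changed with day. The count of genes changing with day was the least stable, at 74 among genes above the array median, 5 without an experiment term, 8 with a trended, robust eBayes, 714 with weighted arrays and 6 without the mice with pancreatic transcripts. The genotype contrast gave 27 higher and 5 lower genes in experiment I, 443 lower in experiment II, 307 and 69 without an experiment term, 470 lower with array weights and 96 lower without the mice with pancreatic transcripts. Genes seen in spleen only numbered 68 under the strictest rule, 911 within experiment I and 488 within experiment II. Precursor genes among them numbered 2 under the strictest rule, 22 within experiment I and 15 with the 99th percentile as background. Ppbp (0.333) and Lyz2 (0.036) turned to spleen in experiment I alone and Car3 (0.0329) in experiment II alone. The causes were not tested. Of the named results, joint normalisation kept 103 on their side of the threshold, took 12 below it and put 1 above it, and normexp correction kept all 116. Genes near the receptor background, such as Tpx2, Epx and Ncf1, are limited by signal over background.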
